A study of Mus musculus with 12 samples.

Results

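The mouse mitochondrial genome encodes 37 genes, 13 mRNAs, 2 rRNAs and 22 tRNAs, and RNA-seq counts of all of them were compared between 4 groups of cells. They are the genes whose name starts with mt-, 37 of the 55401 genes counted, and all 37 passed the filter on low counts that left 18183 genes to be tested. All lie on the circular chromosome M, and their start, end and strand in the deposited annotation match GENCODE M21, on the build GRCm38.

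Mitochondrial genes are transcribed as long precursors from both strands of the circle, and the tRNAs that punctuate them are cut out by RNase P and ELAC2, which releases the mRNAs and rRNAs. The mRNAs all encode subunits of the respiratory chain or of ATP synthase, while every protein that copies, transcribes, cuts, modifies or translates this genome is made from nuclear genes. The control region, between mt-Tp and mt-Tf, holds the origins of transcription, so mt-Tf is the first gene read from one strand and mt-Tp the first read from the other.

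The labels describe B16F10 cells, a mouse melanoma line, as deficient in Rnf19a, a gene of a RING-type ubiquitin ligase, or as control. The groups are sgRnf19a cells given a treatment called IR for 24 h, control cells given IR for 24 h, untreated sgRnf19a cells and untreated control cells, with 3 libraries each; control cells carried the guide sgNC. IR is not spelled out in the labels, and whether a guide's cells are 1 clone is not given in the sources used here. The 6 columns taken as IR-treated carry no word for IR: they were placed by elimination, and their numbers (1, 3 and 4 for sgRnf19a, 1, 4 and 5 for control) are not those of the labels. Nothing says whether the 3 libraries of a group are separate cultures, and the spread that the p-values measure may be technical.

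The IR-treated libraries held 34262483 to 45576326 counts and the untreated ones 62681644 to 71265107 counts. The 2 sets also differed in quality. Nuclear rRNA genes took 11.3 to 22.1% of all counts in IR-treated libraries and 0.223 to 0.696% in untreated libraries, although rRNA had been depleted in all. The median log2 level of long transcripts (over 6 kb) exceeded that of short ones (under 1 kb) by -1.49 to 0.61 in IR-treated libraries and 1.18 to 2.11 in untreated libraries. The same difference was -1.08 to 0.61 in IR-treated sgRnf19a against -1.49 to -1.24 in IR-treated control libraries, and 1.94 to 2.11 in untreated sgRnf19a against 1.18 to 1.90 in untreated control libraries. Of 8 melanocyte markers 4 had counts, while Tyr, Tyrp1, Mlana and Slc45a2 were at 0 in all 12 libraries; 6 of 6 epithelial, 6 of 6 fibroblast, 5 of 6 immune (Cd3e at 0) and 4 of 4 endothelial markers had counts. Summed melanocyte markers were at 3.73 to 10.5 CPM (counts scaled to library size by TMM) in IR-treated sgRnf19a libraries against 2.29 to 3.09 in IR-treated control libraries, and at 15.8 to 16.4 in untreated sgRnf19a libraries against 9.53 to 13.8 in untreated control libraries. Epithelial markers were at 394 to 684 against 1043 to 1216 CPM with IR, and at 559 to 572 against 658 to 830.4 CPM untreated, in sgRnf19a against control libraries. Immune markers overlapped between the guides in both states, and endothelial markers, at most 5.99 CPM, did so in untreated cells. Summed fibroblast markers were at 100.3 to 203 CPM in IR-treated sgRnf19a libraries against 396 to 426 in IR-treated control libraries, and at 57.2 to 145 in untreated sgRnf19a libraries against 470.2 to 503 in untreated control libraries. With IR, Rnf19a transcripts were at 18.1, 11.6 and 37.7 CPM in sgRnf19a and 4.37, 8.06 and 5.39 CPM in control libraries, so every sgRnf19a value was the higher. In untreated cells they were at 27.5, 25.6 and 22.6 CPM in sgRnf19a and 33.5, 29.4 and 21.5 CPM in control libraries, which overlapped. A guide need not change the transcript level, so Rnf19a levels give no check of the labels. The labels name a melanoma line, yet 4 of 8 melanocyte markers were at 0 in all 12 libraries. Whether the cells are those of the labels was not tested, and groups are named below as labelled. Library 4 of the IR-treated sgRnf19a cells and library 3 of the untreated control cells lay farthest from the others of their group in mitochondrial levels, and main counts are also given without them. Both were picked from the same levels that are tested, so a call gained without them is no separate support.

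The sequences below are those of 4 tRNAs and of the overlap of 2 genes on which the results turn. The tRNAs are printed in DNA letters of the coding strand from GENCODE M21 on GRCm38, with the anticodon in capitals, since they mark the places on the circle where levels differed. mt-Tp, which carries proline, lies at chrM:15356-15422 on the minus strand beside the control region. mt-Tw, which carries tryptophan, lies at chrM:4950-5016 on the plus strand, mt-Ti, for isoleucine, at chrM:3706-3774 on the plus strand, and mt-Tl1, for leucine, at chrM:2676-2750 on the plus strand directly after mt-Rnr2. The last sequence is the stretch at chrM:7927-7969 on the plus strand that mt-Atp8 and mt-Atp6 share, with the start codon of mt-Atp6 in capitals; it is shown because counts in it cannot be told apart between these genes.
mt-Tp: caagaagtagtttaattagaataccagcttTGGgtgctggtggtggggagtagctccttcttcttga
mt-Tw: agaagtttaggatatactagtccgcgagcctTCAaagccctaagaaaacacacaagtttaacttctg
mt-Ti: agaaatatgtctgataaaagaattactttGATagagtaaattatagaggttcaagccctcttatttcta
mt-Tl1: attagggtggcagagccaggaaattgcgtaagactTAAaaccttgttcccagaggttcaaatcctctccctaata
mt-Atp8 and mt-Atp6 overlap: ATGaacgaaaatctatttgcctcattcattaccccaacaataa

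The 13 mRNAs took nearly all mitochondrial counts. All 37 genes together held 4.07 ± 1.40% of the counts of a library in IR-treated sgRnf19a cells, 3.39 ± 0.179% in IR-treated control cells, 7.09 ± 0.700% in untreated sgRnf19a cells and 6.03 ± 1.54% in untreated control cells (SD, n = 3 each). The IR-treated sgRnf19a libraries (3.03 to 5.66%) lay below the untreated sgRnf19a libraries (6.59 to 7.89%), and the IR-treated control libraries (3.25 to 3.59%) below the untreated control libraries (4.29 to 7.26%). In bulk RNA, fewer mitochondria per cell and fewer transcripts per mitochondrion, or a change in which cells are present, cannot be told apart. The mRNA share was 3.95 ± 1.35% in IR-treated sgRnf19a, 3.27 ± 0.178% in IR-treated control, 6.95 ± 0.688% in untreated sgRnf19a and 5.82 ± 1.50% in untreated control cells. Relative to nuclear protein-coding counts, which leaves nuclear rRNA out, all 37 genes amounted to 6.14 ± 2.02, 5.21 ± 0.233, 9.12 ± 0.994 and 7.67 ± 2.08% in the same order of groups. On that scale the IR-treated sgRnf19a libraries (4.96 to 8.48%) reached into the range of the untreated sgRnf19a libraries (8.44 to 10.3%), and the IR-treated control libraries (4.95 to 5.36%) into that of the untreated control libraries (5.34 to 9.34%).

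The rRNAs and tRNAs were small parts of these libraries. Both rRNAs, which are among the targets of many depletion kits, held 0.101 ± 0.0436% of counts in IR-treated sgRnf19a, 0.104 ± 0.00310% in IR-treated control, 0.111 ± 0.0115% in untreated sgRnf19a and 0.180 ± 0.0341% in untreated control cells. The 22 tRNAs, of 59 to 75 bases, held 0.0158 ± 0.00166, 0.0202 ± 0.00136, 0.0221 ± 0.00189 and 0.0283 ± 0.00704% in that order. A tRNA had between 6 counts (mt-Td) and 5871 counts (mt-Tl1) in a library, against 6913 (mt-Nd3) to 2175028 (mt-Co1) for an mRNA. RNA of this length is retained poorly by the extraction columns named in the labels, and a count over a tRNA gene cannot be told apart from one of an uncut precursor. Since strand use in counting is not given, RNA of the opposite strand may be included as well.

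**Figure D1:**
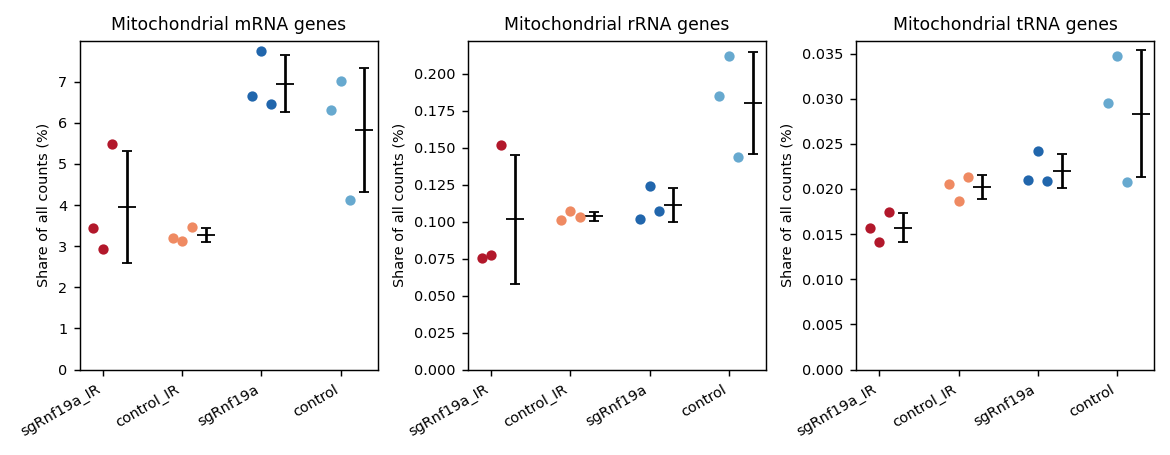
Percent of all counts of a library (y axes, each from 0) in the 13 mRNAs, 2 rRNAs and 22 tRNAs of the mitochondrial genome, by group (x axes), with a point per library and the mean ± SD of 3. mRNA shares lay between 2.93 and 5.49% in IR-treated sgRnf19a and between 6.46 and 7.74% in untreated sgRnf19a libraries.

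Per length and as deposited, mt-Co1, the catalytic subunit of cytochrome c oxidase, had the highest mRNA level in every group, and mt-Nd3, a small subunit of complex I, the lowest. In length-scaled units (FPKM), mt-Co1 was at 8678 ± 3433 in IR-treated sgRnf19a, 6909.6 ± 889 in IR-treated control, 17970.3 ± 1615 in untreated sgRnf19a and 12353 ± 3648 in untreated control cells (SD, n = 3 each). mt-Nd3 was at 509 ± 30.2, 753 ± 81.0, 345 ± 22.7 and 452 ± 37.1 FPKM in that order. The order in between changed with treatment. mt-Co3, another cytochrome c oxidase subunit, was second in IR-treated control cells at 3807 ± 88.6 FPKM, where mt-Atp8 at 3657 ± 304 was within its spread, and eighth of 13 in untreated control cells at 3336 ± 160.3 FPKM. mt-Atp8, a small subunit of ATP synthase, came second in the other 3 groups, at 6939 ± 2847 FPKM in IR-treated sgRnf19a, 10587 ± 1155 in untreated sgRnf19a and 10209 ± 1403 in untreated control cells. mt-Nd4l and mt-Nd4, complex I subunits read from one bicistronic mRNA that share 7 bases, differed by less than their SD in every group, as did mt-Nd1 and mt-Co2 in each group. These orders leave out counts given to nuclear copies, described next.

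Nuclear DNA holds copies of parts of this genome, and 11 nuclear genes had stretches of at least 100 bases at 95% or more identity to 9 of the mRNAs. Of these, 7 lie in a run on chromosome 1 (chr1:24611535-24616197) that matches the circle from mt-Nd4 to mt-Co1. The counts of 5 of them were close to those of the mitochondrial genes or above them. Gm10925 had 1.05 to 1.07 counts per count of mt-Atp6 in all 12 libraries, Gm28661 0.953 to 0.966 per count of mt-Co2, Gm28437 0.963 to 0.981 per count of mt-Co3, Gm10222 0.990 to 1.06 per count of mt-Nd4l and Gm28438 1.19 to 1.52 per count of mt-Nd3. Gm28439 had 0.414 to 0.460 counts per count of mt-Nd4, and the others at most 0.0400. Levels of these mRNAs are therefore uncertain by about the size of the copy, and so is their order. With the copies' counts added, mt-Co3 was first in IR-treated control cells at 7526 ± 162 FPKM, ahead of mt-Co1 at 7153 ± 895, and mt-Atp6 first in untreated control cells at 13319 ± 1668, ahead of mt-Co1 at 12771 ± 3795, in both cases by less than the SD of mt-Co1. In sgRnf19a cells mt-Co1 stayed first, at 9021 ± 3576 with IR, where mt-Atp6 at 8926 ± 3286 was within its spread, and at 18544 ± 1696 untreated. The lowest was then mt-Nd6 in both IR-treated groups, at 780.0 ± 95.9 FPKM in sgRnf19a and 901 ± 28.2 FPKM in control cells, and mt-Nd3 in both untreated groups. This order holds annotated copies only: none resembled mt-Atp8, and that of mt-Co1 in the run matches 483 of its 1545 bases. Whether a read was counted at both places is not given, so the addition may count some reads more than once. Of the genes with values named by rule below, only mt-Nd3, mt-Nd4 and mt-Co1 resemble a copy. Adding the copies' counts kept their named values on their side of the threshold and in their direction. For mt-Nd4 and mt-Co1 the ratios given above were nearly constant or small, so the addition could hardly change their values. Named genes without a copy gained no counts, so the addition is no check of them.

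**Figure D2:**
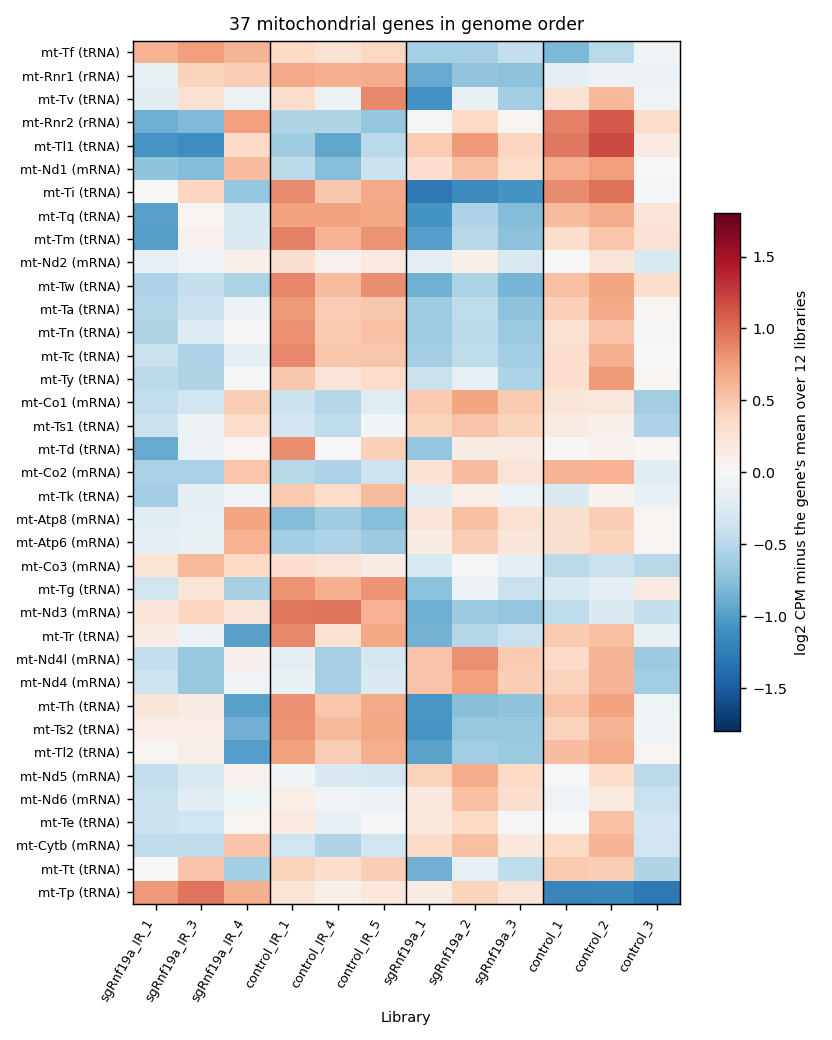
Level of each of the 37 mitochondrial genes (rows, in the order of the genome) in each of the 12 libraries (columns), as log2 CPM minus the mean of that gene over the libraries; the colour bar gives the log2 difference. mt-Tp was lowest in the 3 untreated control libraries, at 6.20 to 6.71 CPM, and most other tRNAs were lower in sgRnf19a than in control libraries.

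In untreated cells, sgRnf19a libraries had more mt-Tp and less of 10 other tRNAs and of mt-Rnr1 than control libraries. Of the 13 mRNAs 0 passed the test by edgeR or DESeq2, and 4 had an unadjusted p under 0.05. Of the 37 genes 1 was called higher and 11 lower at an adjusted p under 0.05 (edgeR's quasi-likelihood test, Benjamini-Hochberg over all genes), or 2.70% and 29.7%, against 3.02% higher and 3.20% lower among all genes tested. The tRNAs had a median log2 fold change of -0.85 and the mRNAs of 0.10, against 0.03 over all genes. The differences of long and short transcripts and of melanocyte, epithelial and fibroblast marker sums given above, which set the guides apart in both states, move with these results; their part was not tested. Calls fell on genes annotated to both strands, with 6 of 14 plus-strand tRNAs lower, and 4 of 8 minus-strand tRNAs lower and 1 higher. As strand use in counting is not given, the strand of the RNA behind these counts is not known.

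mt-Tp was at 16.6, 20.1 and 17.9 CPM in untreated sgRnf19a libraries and at 6.66, 6.71 and 6.20 CPM in untreated control libraries. The groups were well apart, with a log2 fold change of 1.48 ± 0.14 (SE; 2.79-fold; adjusted p = 4.07e-05, edgeR). mt-Tp stayed called when any 1 of the 6 libraries was left out, between 1.40 and 1.54. Its neighbour mt-Tt, the threonine tRNA on the other strand, had -0.65 and was not called.

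The lower tRNAs lay in 3 runs of neighbouring genes. Reads of an uncut precursor may cover several genes of a run. Calls within a run may thus not be separate results, here and in IR-treated cells, and the shares of genes called count each gene. mt-Ti, mt-Tq and mt-Tm, the tRNAs for isoleucine, glutamine and methionine between mt-Nd1 and mt-Nd2, were all lower, at -1.82 ± 0.34 (adjusted p = 0.00623), -1.29 ± 0.27 (0.0141) and -1.09 ± 0.25 (0.0235, all by edgeR). mt-Ti was at 0.814, 0.896 and 0.937 CPM in untreated sgRnf19a libraries and at 3.57, 3.90 and 1.93 CPM in untreated control libraries. The 3 sgRnf19a values were close together and below all control values, of which library 3 was the lowest. In the run between mt-Nd2 and mt-Co1, mt-Tw, mt-Ta, mt-Tn and mt-Tc, for tryptophan, alanine, asparagine and cysteine, fell by 1.28, 1.01, 0.85 and 0.90 on the log2 scale, while mt-Ty, for tyrosine, had -0.77 at an adjusted p of 0.0719. mt-Tw was at 4.19, 5.12 and 4.26 CPM in untreated sgRnf19a libraries and at 11.1, 12.5 and 9.45 CPM in untreated control libraries, and the groups did not overlap (adjusted p = 0.00055, edgeR). The run mt-Th, mt-Ts2 and mt-Tl2 before mt-Nd5, for histidine, serine and leucine, fell by 1.27, 1.15 and 1.19. The remaining 7 plus-strand tRNAs (mt-Tf, mt-Tv, mt-Tl1, mt-Td, mt-Tk, mt-Tg and mt-Tr) and the minus-strand mt-Ts1 and mt-Te were not called, at -0.90 to 0.52.

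Among the mRNAs, the highest log2 fold change was that of mt-Co1, at 23794, 28250.2 and 23915 CPM in untreated sgRnf19a libraries and 19968, 19947 and 11152 CPM in untreated control libraries (0.57 ± 0.26, adjusted p = 0.299, edgeR). The groups did not overlap, and control library 3 was far below the other two. The most negative was that of mt-Nd3, at 99.3, 116 and 113 CPM in untreated sgRnf19a and 133, 152 and 135 CPM in untreated control libraries (-0.36 ± 0.13, adjusted p = 0.16). mt-Nd6, the one mRNA of the other strand and a subunit of complex I, was at 673, 859 and 721 CPM in sgRnf19a and 557, 668 and 448 CPM in control libraries (0.43 ± 0.16, adjusted p = 0.186). These groups did not overlap, but neither difference passed the test. The other 10 mRNAs were at -0.11 to 0.50. mt-Nd6 shares 14 bases with mt-Nd5 on the opposite strand, and whether counting used strand is not given in the sources used here.

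The small rRNA mt-Rnr1 fell by 0.66 ± 0.15 (adjusted p = 0.0178, edgeR), with 265, 303 and 299 CPM in untreated sgRnf19a libraries and 442, 463 and 464 CPM in untreated control libraries. The large rRNA mt-Rnr2 was at 608, 788 and 641 CPM in untreated sgRnf19a and 1161, 1321 and 772 CPM in untreated control libraries (-0.68 ± 0.37, adjusted p = 0.403). The sgRnf19a and control ranges of both rRNAs were nearly or fully apart, with less spread for mt-Rnr1. Without control library 3 and the IR-treated sgRnf19a library 4, the counts were 1 higher and 15 lower, against 727 and 802 of 18681 genes. The count of lower genes was less stable to single libraries: it was 2 to 9 when one library was left out, with 3, 4 and 2 without sgRnf19a library 1, 2 and 3, and 3 and 4 without control library 1 and 2. mt-Tw and mt-Ti were called in all 6 of these fits and mt-Tm in 0. Among these fits the call of mt-Rnr1 was kept only without control library 2. Those of mt-Tc, mt-Tn, mt-Th, mt-Ts2 and mt-Tl2 were kept only without control library 3. The call of mt-Tq was lost without control library 1 or 2 or sgRnf19a library 1 or 3. That of mt-Ta was lost without sgRnf19a library 3.

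In IR-treated cells, which share no library with the untreated ones, sgRnf19a libraries had more mt-Tp, mt-Atp8 and mt-Atp6 and less of 11 tRNAs, mt-Rnr1 and mt-Nd3 than control libraries. The calls were 3 higher and 13 lower of 37, or 8.11% and 35.1%, against 21.0% higher and 12.8% lower among all genes. tRNAs had a median log2 fold change of -0.76 and mRNAs of 0.18, against 0.07 over all genes. The mRNA median was -0.16 without the IR-treated sgRnf19a library 4 and control library 3, and -0.61 once transcript length and GC content were corrected for, so its sign depended on these choices, while the tRNA median was between -0.89 and -0.59 over all settings tried. Of the lower genes, 9 were lower in both comparisons, which is 69.2% of those lower in IR-treated and 81.8% of those lower in untreated cells. Over all genes the shares were 19.4% and 77.7%.

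mt-Tw was at 5.17, 5.69 and 5.14 CPM in IR-treated sgRnf19a libraries and at 14.0, 11.2 and 13.6 CPM in IR-treated control libraries. The difference of -1.28 ± 0.17 (adjusted p = 0.000359, edgeR) had the size seen in untreated cells, and the groups were far apart. All 5 tRNAs of its run were called lower, with -0.91 for mt-Ta, -0.87 for mt-Tn and -0.68 for mt-Ty, and an adjusted p of 0.0044 for mt-Tc. mt-Tq fell by 1.07 and mt-Tm by 1.11, while mt-Ti was at 1.97, 2.59 and 1.22 CPM in sgRnf19a and 3.55, 2.78 and 3.17 CPM in control libraries (-0.72 ± 0.33, adjusted p = 0.118). Library 4 was the lowest of the sgRnf19a libraries for mt-Ti, and also for mt-Th, mt-Ts2 and mt-Tl2. mt-Ts2 and mt-Tl2 fell by 0.83 and 0.81, and mt-Th had -0.80 at an adjusted p of 0.0521. mt-Tg and mt-Tk, for glycine and lysine, fell by 0.96 and 0.73; neither was called in untreated cells, and the difference between the comparisons was not called for either. The remaining 8 tRNAs were at -0.87 to 0.32 and not called. Several calls depended on single IR-treated libraries. Those of mt-Tk and mt-Ty were lost without control library 1, 4 or 5 or sgRnf19a library 1 or 3. That of mt-Tg was lost without control library 1 or 5 or sgRnf19a library 1 or 4. mt-Tl2 lost its call without control library 1, 4 or 5 or sgRnf19a library 4. mt-Ts2 did so without control library 1 or 5 or sgRnf19a library 4. With the length and GC correction mt-Tg, mt-Tl2 and mt-Ts2 were not called.

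mt-Tp was again the one tRNA called higher, at 25.7, 29.5 and 23.7 CPM in IR-treated sgRnf19a libraries and 17.9, 16.1 and 17.3 CPM in IR-treated control libraries. The groups did not overlap (0.62 ± 0.14, 1.54-fold, adjusted p = 0.00526, edgeR), and the call held without any 1 of the 6 libraries. It was lost with the length and GC correction, at 0.41 and an adjusted p of 0.143, within a range of 0.41 to 0.64 over 13 other settings, of which 12 kept the call.

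**Figure D3:**
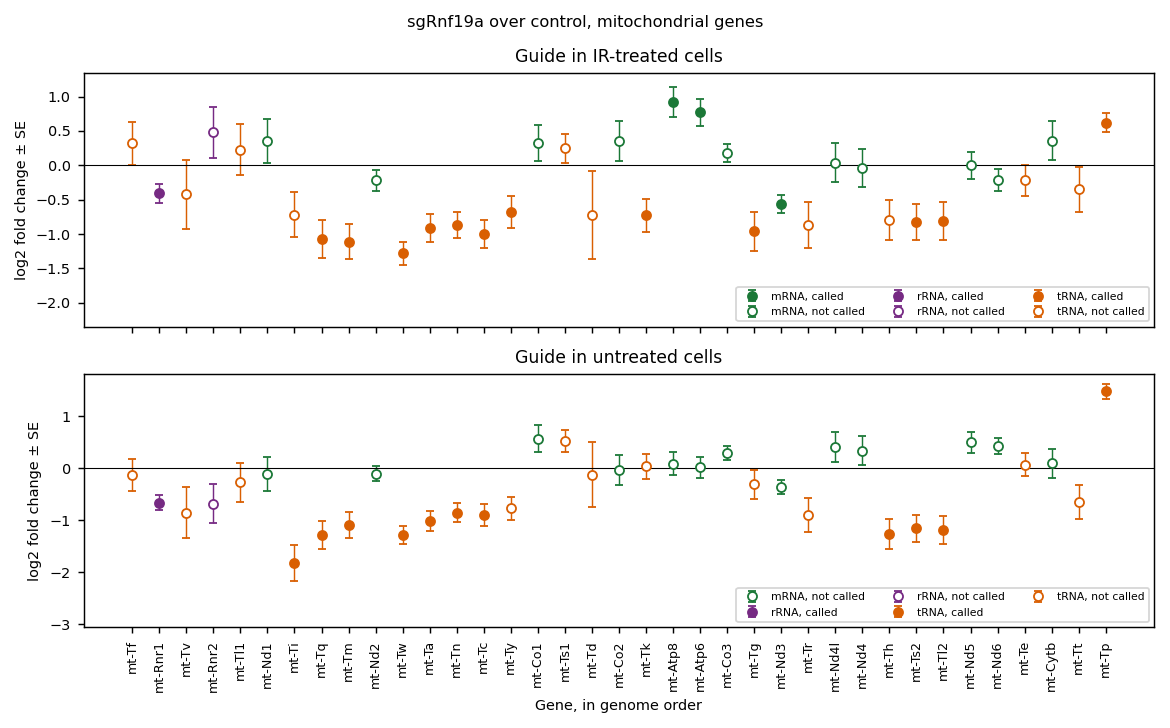
log2 fold change of sgRnf19a over control cells (y axes, with SE) for the 37 genes in genome order (x axes), in IR-treated cells in the upper panel and in untreated cells in the lower panel; filled points passed the test. In both panels mt-Tp, the last gene, is above 0 (0.62 and 1.48) and mt-Tw is at -1.28.

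mt-Atp8 and mt-Atp6, ATP synthase subunits read from one mRNA with the overlap printed above, moved together. mt-Atp8 was at 1359, 1389.8 and 2529.6 CPM in IR-treated sgRnf19a libraries and 899.8, 987 and 911 CPM in IR-treated control libraries (0.92 ± 0.22, adjusted p = 0.00902, edgeR). mt-Atp6 was at 2916, 2998 and 5071 CPM in IR-treated sgRnf19a libraries and 2131, 2227 and 2079.6 CPM in IR-treated control libraries (0.77 ± 0.20, adjusted p = 0.0131). Every sgRnf19a value was above every control value, and sgRnf19a library 4 was much the highest; without it and control library 3 the differences were 0.56 and 0.46, both still called. With the length and GC correction they were 0.42 and -0.01, and neither was called. mt-Nd3 fell by 0.56 ± 0.13 (adjusted p = 0.00701), with 213, 239 and 215 CPM in IR-treated sgRnf19a and 351, 354 and 280.2 CPM in IR-treated control libraries.

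mt-Rnr1 was at 459, 658 and 673 CPM in IR-treated sgRnf19a and 799, 778 and 793 CPM in IR-treated control libraries. The groups did not overlap, but at -0.41 ± 0.14 its adjusted p was 0.0489 by edgeR, and the call was kept in 2 of the 6 fits that leave out one library and in 8 of 13 other settings. mt-Rnr2 was at 336, 355 and 1026 CPM in sgRnf19a and 425, 424 and 379 CPM in control libraries (0.48 ± 0.37, adjusted p = 0.34). Here the sign rested on library 4, since the value was -0.24 without it and control library 3. mt-Nd6 was at 446, 516 and 560.4 CPM in IR-treated sgRnf19a and 639, 572 and 548 CPM in IR-treated control libraries, which overlapped (-0.21 ± 0.16, adjusted p = 0.359). The other 9 mRNAs (mt-Nd1, mt-Nd2, mt-Co1, mt-Co2, mt-Co3, mt-Nd4l, mt-Nd4, mt-Nd5 and mt-Cytb) were not called, at -0.22 to 0.36. Without the same 2 libraries, 3 genes were called higher and 12 lower, against 3230 and 2032 of all 18681 genes. Without control library 1 or 5 of the IR-treated set 7 were lower, against 1418 of 19505 and 1448 of 19523 genes.

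Ratios within a library do not depend on the scaling. All tRNAs together had 4.57, 4.81 and 3.18 counts per 1000 mRNA counts in IR-treated sgRnf19a and 6.43, 5.97 and 6.13 in IR-treated control libraries, and 3.16, 3.13 and 3.24 in untreated sgRnf19a and 4.66, 4.95 and 5.02 in untreated control libraries. No sgRnf19a library overlapped a control library in either state. Summed fibroblast and epithelial markers, given above, were likewise lower in every sgRnf19a than in every control library of the same state, while summed melanocyte markers and the level of long over short transcripts were higher; their part in these differences was not tested.

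**Figure D4:**
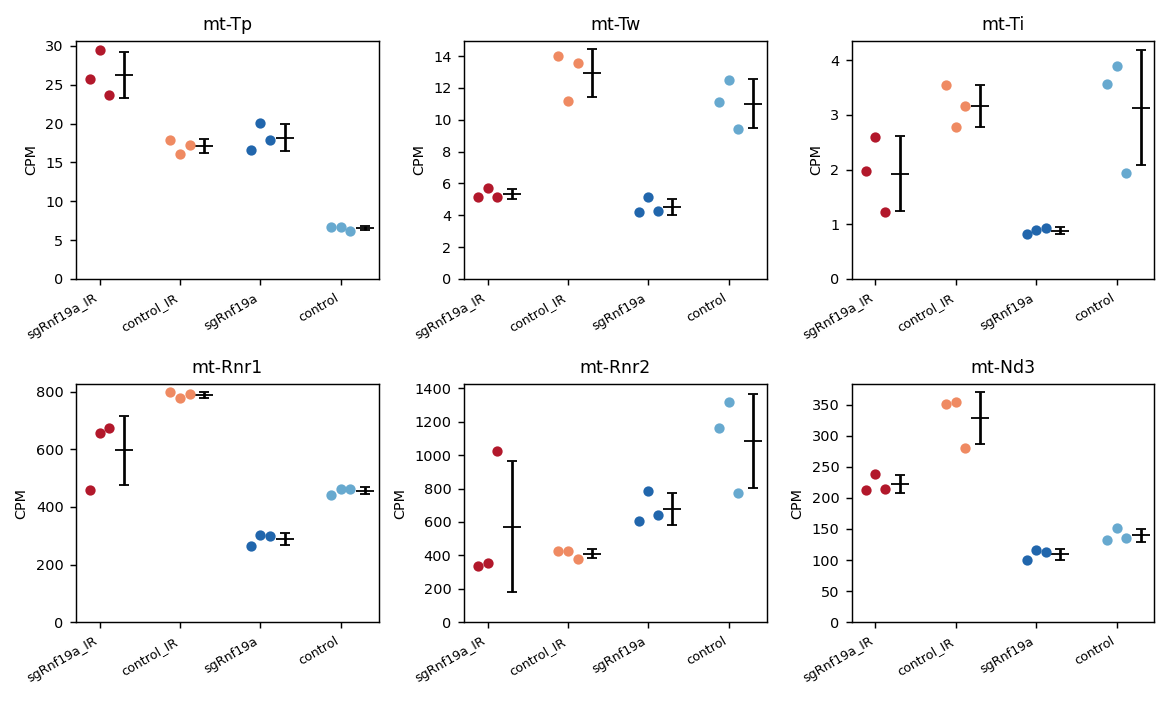
CPM (y axes) of mt-Tp, mt-Tw, mt-Ti, mt-Rnr1, mt-Rnr2 and mt-Nd3 in each library (points) by group (x axes), with the mean ± SD of 3. mt-Tw lay between 4.19 and 5.69 CPM in the 6 sgRnf19a libraries and between 9.45 and 14.0 CPM in the 6 control libraries.

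With IR, control cells had more mt-Tp, mt-Nd3, mt-Rnr1, mt-Tg and mt-Co3 and less mt-Tl1, mt-Rnr2, mt-Nd1, mt-Atp8, mt-Atp6 and mt-Co2 than without it. These are 5 genes called higher and 6 lower of 37, or 13.5% and 16.2%, against 22.2% higher and 25.7% lower among all genes, and whether the shares differ was not tested. The median was -0.54 for mRNAs and 0.24 for tRNAs, against -0.02 for all genes. Neither sign was stable: with the length and GC correction the mRNA median was 0.65 and the tRNA median 1.19, and with limma on log2(FPKM + 1) they were -0.94 and -0.22. The share of nuclear rRNA, given above, was higher and that of long transcripts lower in every IR-treated library than in every untreated one; their part in these results was not tested. Without control library 3 and the IR-treated sgRnf19a library 4, 5 genes were higher and 12 lower, against 4494 and 5098 of 18681 genes. The IR and guide comparisons use the same libraries and are not independent of each other.

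mt-Tp rose in control cells, with 17.9, 16.1 and 17.3 CPM in IR-treated and 6.66, 6.71 and 6.20 CPM in untreated libraries (1.39 ± 0.14, 2.62-fold, adjusted p = 5.18e-05, edgeR). mt-Nd3 rose as well, with 351, 354 and 280.2 CPM in IR-treated and 133, 152 and 135 CPM in untreated control libraries (1.23 ± 0.13, 2.35-fold, adjusted p = 6.3e-05). Both sets were far apart, and both calls held in all 13 other settings and without any 1 library. mt-Tl1 fell by 1.50 ± 0.38 (adjusted p = 0.00593), with 21.5, 17.6 and 23.9 CPM in IR-treated and 64.6, 76.1 and 37.0 CPM in untreated control libraries. mt-Nd1, the complex I subunit beside it on the circle, was at 2727, 2218 and 2877 CPM in IR-treated and 5945, 6355 and 3731 CPM in untreated control libraries (-1.04 ± 0.33, adjusted p = 0.0208). Untreated control library 3 was the lowest of its group for both, yet above all IR-treated libraries; the call of mt-Tl1 held in all 13 other settings and that of mt-Nd1 was kept in 2 of 6 fits that leave out a library and lost with the length and GC correction, at -0.05.

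The 2 rRNAs moved apart in control cells. mt-Rnr1 rose, with 799, 778 and 793 CPM in IR-treated and 442, 463 and 464 CPM in untreated control libraries (0.79 ± 0.15, adjusted p = 0.000795, edgeR). Its call was lost with limma on each of 3 FPKM settings, at 0.30. mt-Rnr2 fell by 1.41 ± 0.37 (adjusted p = 0.00809), with 425, 424 and 379 CPM in IR-treated and 1161, 1321 and 772 CPM in untreated control libraries. Per kilobase, mt-Rnr2 had 0.313 ± 0.0215 counts for each of mt-Rnr1 in IR-treated and 1.44 ± 0.381 in untreated control libraries (SD, n = 3 each), with no overlap. In sgRnf19a cells this ratio was 0.442, 0.326 and 0.921 in IR-treated and 1.38, 1.57 and 1.30 in untreated libraries, also with no overlap. With the length and GC correction mt-Rnr2 was at -0.02 in control cells and not called. Both rRNAs went through the depletion step that left the nuclear rRNA shares given above, whose part in these values was not tested.

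Of the other genes called in control cells, mt-Co3 rose by 0.68 ± 0.13 (adjusted p = 0.000831, edgeR) and mt-Tg by 0.83 ± 0.28 (0.0271), and mt-Atp8, mt-Atp6 and mt-Co2 fell by 0.99, 0.87 and 0.86. The calls of mt-Tg and mt-Co2 were kept in 1 of 6 fits that leave out a library, and those of mt-Co3, mt-Atp8 and mt-Atp6 in all 6. With limma on each of 3 FPKM settings mt-Co3 (0.19) and mt-Tg (0.34 to 0.35) were not called. With the length and GC correction mt-Atp8, mt-Atp6 and mt-Co2 were at 0.04, 0.10 and -0.09 and not called. The 19 tRNAs that were not called were at -0.20 to 0.76, and the 7 mRNAs at -0.68 to 0.19.

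In sgRnf19a cells 6 genes rose with IR and 4 fell, or 16.2% and 10.8%, against 18.0% and 17.6% among all genes, with a median of -0.48 for mRNAs and 0.33 for tRNAs against -0.02 for all genes. The genes called higher were mt-Tf, mt-Rnr1, mt-Ti, mt-Co3, mt-Nd3 and mt-Tp, and those called lower the complex I subunits mt-Nd4l, mt-Nd4, mt-Nd5 and mt-Nd6. mt-Rnr1, mt-Co3, mt-Nd3 and mt-Tp were called higher in both cell types, 66.7% of the list in sgRnf19a and 80.0% of that in control cells, against 80.2% and 65.0% over all genes. With limma on each of 3 FPKM settings, mt-Co3 was called in neither cell type (0.10 in sgRnf19a, 0.19 in control cells). There, mt-Rnr1 (0.30) was not called in control cells and mt-Tp (0.07) was not called in sgRnf19a cells. No gene was called lower in both, against 77.3% and 53.0% over all genes. Library 4 decided much of the lower count: without it 13 genes were lower and 9 higher, and without it and control library 3, 14 were lower and 10 higher. Over all genes, 4694 of 19217 were lower and 4079 higher without library 4. Without both libraries, 4688 of 18681 were lower and 4166 higher. Without IR-treated sgRnf19a library 1 or untreated sgRnf19a library 2 none was lower by edgeR, and without IR-treated library 3, 1 was.

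mt-Tf was at 1.46, 1.59 and 1.44 CPM in IR-treated and 0.627, 0.623 and 0.703 CPM in untreated sgRnf19a libraries (1.20 ± 0.31, 2.29-fold, adjusted p = 0.0113, edgeR). mt-Nd3 was at 213, 239 and 215 CPM in IR-treated and 99.3, 116 and 113 CPM in untreated sgRnf19a libraries (1.02 ± 0.13, 2.03-fold, adjusted p = 0.000187). mt-Rnr1 was at 459, 658 and 673 CPM in IR-treated and 265, 303 and 299 CPM in untreated sgRnf19a libraries (1.05 ± 0.15, adjusted p = 0.000298). All 3 sets were apart, and all 3 calls held in every one of 13 other settings and without any 1 library. mt-Ti rose by 1.12 ± 0.34 (adjusted p = 0.0221), a call kept in 1 of 6 fits that leave out a library, and mt-Co3 by 0.56 ± 0.13 (adjusted p = 0.00476). With limma on each of 3 FPKM settings mt-Ti (0.56 to 0.59) and mt-Co3 (0.10) were not called. mt-Tp rose by 0.54 ± 0.13 (adjusted p = 0.0091), with 25.7, 29.5 and 23.7 CPM in IR-treated and 16.6, 20.1 and 17.9 CPM in untreated sgRnf19a libraries. That call was kept in 9 of 13 other settings, and was lost with the length and GC correction (0.29) and with limma on each of 3 FPKM settings (0.07).

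mt-Nd4 fell by 0.92 ± 0.28 (adjusted p = 0.0232, edgeR), with 1877, 1511 and 2326 CPM in IR-treated and 3452, 4041 and 3296 CPM in untreated sgRnf19a libraries. mt-Nd6 fell by 0.57 ± 0.16 (adjusted p = 0.0189), with 446, 516 and 560.4 CPM in IR-treated and 673, 859 and 721 CPM in untreated sgRnf19a libraries. In control cells it was at 639, 572 and 548 CPM in IR-treated and 557, 668 and 448 CPM in untreated libraries, which overlapped (0.07 ± 0.16, adjusted p = 0.753). With the length and GC correction mt-Nd4, mt-Nd5 and mt-Nd6 were at -0.11, 0.11 and 0.14 in sgRnf19a cells and not called. mt-Tl1 was at 16.1, 15.4 and 42.6 CPM in IR-treated and 46.1, 57.0 and 43.9 CPM in untreated sgRnf19a libraries (-0.99 ± 0.37, adjusted p = 0.0568), and mt-Rnr2 at 336, 355 and 1026 CPM in IR-treated and 608, 788 and 641 CPM in untreated sgRnf19a libraries (-0.25 ± 0.37, adjusted p = 0.648). mt-Nd4l and mt-Nd5 fell by 0.92 and 0.69, and both calls were kept in 3 of 6 fits that leave out a library. The 7 mRNAs that were not called were at -0.60 to 0.07, and the 19 tRNAs at -0.99 to 0.72. For mt-Tl1 and mt-Rnr2, IR-treated library 4 stood far above the other two. Without it and control library 3, mt-Tl1 was at -1.64 and mt-Rnr2 at -0.98, and both were called. These libraries were left out because of mitochondrial levels such as these, so the calls are no separate support.

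**Figure D5:**
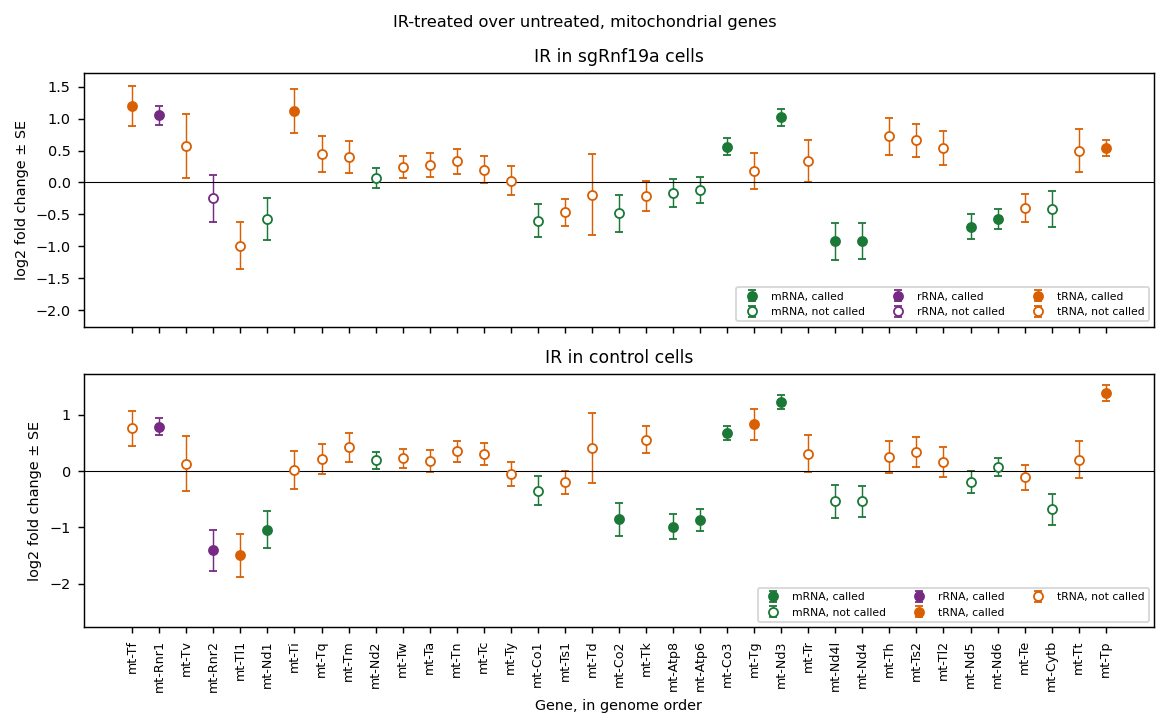
log2 fold change of IR-treated over untreated cells (y axes, with SE) for the 37 genes in genome order (x axes), in sgRnf19a cells in the upper panel and in control cells in the lower panel; filled points passed the test. mt-Rnr1, mt-Co3, mt-Nd3 and mt-Tp are filled above 0 in both panels.

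The IR responses of the 2 cell types were not shown to differ for any mitochondrial gene. The test of the difference called 0 of 37 by edgeR, against 0.544% higher and 0.137% lower among all genes, and 7 had an unadjusted p under 0.05. DESeq2 called 1, mt-Tp, as lower, against 395 lower of all 18183 genes. mt-Tp had the smallest value, -0.85 ± 0.19 (adjusted p = 0.0672), as its rise with IR was 1.39 in control and 0.54 in sgRnf19a cells. It was between -0.94 and -0.77 without any 1 library and was also called by a filter of 1 CPM and by limma on log2(FPKM + 1). The largest values were those of mt-Rnr2 (1.16 ± 0.52, adjusted p = 0.226) and mt-Ti (1.11 ± 0.47, adjusted p = 0.205), followed by mt-Atp8 (0.83 ± 0.31, adjusted p = 0.167), and mt-Nd6 had -0.64 ± 0.23 (adjusted p = 0.157). Without control library 3 and the IR-treated sgRnf19a library 4, mt-Th (0.97) and mt-Ti (1.61) were called higher, against 496 of 18681 genes. As those libraries were picked by their mitochondrial levels, these 2 calls are no separate support for a difference.

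Nuclear genes that serve the mitochondrial genome were counted in 9 lists holding 201 tested genes. In the guide comparison of untreated cells, 6 of 201 were higher and 4 lower, or 2.99% and 1.99%, near the 3.02% and 3.20% of all genes. In this comparison 0 of 23 genes of RNA processing and decay and 0 of 22 of rRNA and tRNA modification passed edgeR's or DESeq2's test in either direction (2 and 1 had an unadjusted p under 0.05). The called genes were the sensors of nucleic acid Zbp1, Cgas and Ifih1, the mitochondrial topoisomerase Top1mt, the threonyl-tRNA synthetase Tars2 and the initiation factor Mtif3, all higher, and Myc and the ribosomal proteins Mrps6, Mrpl13 and Mrpl48, all lower. Cgas, the sensor of cytosolic DNA, averaged 14.7 CPM in untreated sgRnf19a and 1.73 CPM in untreated control cells (3.09 ± 0.30, adjusted p = 5.35e-05, edgeR). Zbp1, a sensor of Z-form nucleic acid, averaged 15.6 and 2.05 CPM in the same groups (2.92 ± 0.14, adjusted p = 4.42e-07). Tars2 averaged 101 and 60.4 CPM (0.74 ± 0.13, adjusted p = 0.00353) and Top1mt 11.1 and 6.46 CPM (0.77 ± 0.16, adjusted p = 0.0113), while Myc fell by 1.29 ± 0.18 (adjusted p = 0.000905). Over the 78 mitochondrial ribosomal proteins the median was -0.23, with 0 higher and 3 lower by edgeR, 1 higher and 5 lower by DESeq2, and 15 with an unadjusted p under 0.05.

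In IR-treated cells 32 of the 201 genes were higher and 45 lower in sgRnf19a than in control cells, or 15.9% and 22.4%, against 21.0% and 12.8% of all genes, with a median of -0.18 against 0.07 over all genes. The lists pointed different ways: 23 of 78 ribosomal proteins were lower and 1 higher, led by Mrps7 (-0.81 ± 0.16, adjusted p = 0.00404, edgeR), Mrpl40 and Mrps6, and 6 of 13 translation factors were higher and 1 lower. Of the 13 sensors and release genes 4 were higher, led by Zbp1 (4.21 ± 0.14), Cgas (5.53 ± 0.35) and Ifih1 (4.44 ± 0.53), a sensor of double-stranded RNA, and 2 lower, Mavs (-0.55) and Vdac1 (-0.35). Replication genes were 5 higher and 7 lower of 17, transcription genes 3 and 1 of 11, processing and decay genes 6 and 4 of 23, modification genes 5 and 4 of 22, aminoacyl-tRNA synthetases 3 and 2 of 18, and biogenesis regulators 1 and 2 of 9. By edgeR, 2 of the 201 genes, Zbp1 and Cgas, had IR responses that differed, by 1.29 ± 0.18 (adjusted p = 0.0154) and 2.44 ± 0.42 (adjusted p = 0.0318). DESeq2 called 15 higher and 7 lower of 201, or 7.46% and 3.48%, against 1293 higher and 395 lower of all 18183 genes. Among those higher by DESeq2 were Pnpt1 (2.36, adjusted p = 0.000999), Lrpprc (1.47, adjusted p = 0.0276) and Tfam (0.59, adjusted p = 0.0326). Pnpt1 was also called by edgeR with the length and GC correction (1.58) and without the IR-treated sgRnf19a library 4 (1.66).

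Pnpt1, the exonuclease PNPase that degrades mitochondrial RNA, was at 189.8, 121 and 455 CPM in IR-treated sgRnf19a and 23.6, 45.6 and 30.3 CPM in IR-treated control libraries (2.94 ± 0.42, adjusted p = 0.000521, edgeR). It was at 148, 152 and 168 CPM in untreated sgRnf19a and 111, 97.3 and 108 CPM in untreated control libraries (0.57, adjusted p = 0.531), and it fell with IR in control cells (-1.67 ± 0.40, adjusted p = 0.00426; -0.40 and not called with the length and GC correction). The IR-treated groups were far apart, and library 4 was the highest; without it the difference was 2.23. Lrpprc, which stabilises mitochondrial mRNAs, was at 46.2, 33.0 and 109.6 CPM in IR-treated sgRnf19a and 17.0, 23.3 and 21.4 CPM in IR-treated control libraries (1.61 ± 0.35, adjusted p = 0.00515; 0.94 without sgRnf19a library 4, still called). Untreated libraries had 163, 169 and 156 CPM in sgRnf19a and 146, 168 and 134 CPM in control cells. Lrpprc thus fell with IR in both, at -1.37 ± 0.34 (adjusted p = 0.00888; -2.05 without library 4) in sgRnf19a and -2.86 ± 0.36 (adjusted p = 0.000116) in control cells.

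Tfam, which packages the genome and starts its transcription, was at 124, 118 and 123 CPM in IR-treated sgRnf19a, 76.4, 96.1 and 95.4 in IR-treated control, 60.7, 60.5 and 68.3 in untreated sgRnf19a and 68.1, 61.6 and 80.0 CPM in untreated control libraries. It rose with IR in sgRnf19a cells (0.94 ± 0.14, adjusted p = 0.000381, edgeR) and was at 0.35 in control cells (adjusted p = 0.0506; 1.23 and called with the length and GC correction). The IR-treated sgRnf19a libraries lay above all others, 0.44 ± 0.14 over IR-treated control cells (adjusted p = 0.0272), but with the length and GC correction that difference was -0.21 and not called. Polrmt, the mitochondrial RNA polymerase, was not called in any of the 4 comparisons of groups, at 21.4, 28.6 and 12.6 CPM in IR-treated sgRnf19a, 29.9, 28.3 and 27.6 in IR-treated control, 24.5, 23.2 and 19.1 in untreated sgRnf19a and 19.9, 24.6 and 24.0 CPM in untreated control libraries. Polg, the DNA polymerase of this genome, had log2 fold changes of -0.07 to 0.20 and was not called either, but with the length and GC correction it was at 0.83 for IR in control cells and called (adjusted p = 0.00117, edgeR). Ppargc1a, a co-activator of mitochondrial biogenesis, had 0 to 39 counts in a library and was not tested.

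With IR, the mitochondrial ribosomal proteins rose in both cell types. In sgRnf19a cells 57 of 78 were higher and 1 lower (median 0.90), and in control cells 72 were higher and 2 lower (median 1.03), against 18.0% and 22.2% of all genes higher and a median of -0.02 in both. With the length and GC correction the counts were 56 higher and 1 lower in sgRnf19a and 60 higher and 1 lower in control cells, with medians of 0.88 and 1.07. Mrps6, of the small subunit, averaged 76.3 CPM in IR-treated and 20.3 CPM in untreated sgRnf19a cells (1.91 ± 0.18, adjusted p = 4.09e-05, edgeR), and 133 CPM in IR-treated and 36.5 CPM in untreated control cells (1.87 ± 0.18, adjusted p = 4.69e-05). Mrpl27, of the large subunit, rose by 1.63 ± 0.14 in sgRnf19a and 1.42 ± 0.14 in control cells. The 2 RNAs of the same ribosome, mt-Rnr1 and mt-Rnr2, are described above.

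The other lists were mixed, and their counts stand against 18.0% higher and 17.6% lower of all genes in sgRnf19a and 22.2% higher and 25.7% lower in control cells. Of 23 processing and decay genes 7 rose and 3 fell in sgRnf19a and 11 rose and 10 fell in control cells. Hsd17b10, a subunit of RNase P, rose by 1.51 ± 0.23 (adjusted p = 0.000495, edgeR) in sgRnf19a and 1.56 ± 0.23 (adjusted p = 0.000225) in control cells, and Slirp, the partner of Lrpprc, rose by 2.10 ± 0.28 (adjusted p = 0.000255) in sgRnf19a cells. Of 22 modification genes 8 rose and 1 fell in sgRnf19a and 11 rose and 4 fell in control cells, among them Qtrt1, which places queuosine in tRNA anticodons (1.42 and 1.65), and Mrm3, an rRNA methyltransferase (1.19 and 1.62). Of 11 transcription genes 6 rose and 0 fell in sgRnf19a and 5 rose and 2 fell in control cells, led by Mterf4 (0.98 and 0.94) and, as lower, Mterf2 (-2.72 in control cells). Of 13 translation factors 2 rose and 3 fell in sgRnf19a and 3 rose and 5 fell in control cells, with Mrrf, the recycling factor, at 1.15 and 1.06 and the initiation factor Mtif2 at -1.49 and -2.67. Synthetases were 2 higher and 5 lower of 18 in sgRnf19a and 5 and 5 in control cells, replication genes 4 and 2 of 17 in sgRnf19a and 5 and 3 in control cells, biogenesis regulators 1 and 2 of 9 in sgRnf19a and 1 and 4 in control cells, and sensors 7 and 1 of 13 in sgRnf19a and 6 and 2 in control cells.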

How the data were processed

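Per the labels' protocols, RNA from cell pellets (12 samples) was extracted with RNeasy columns, depleted of rRNA, made into strand-marked libraries with 12 PCR cycles and read as 37-bp pairs. The submitters' processing notes name 2 builds (mm10, GRCm39) and 3 tools (Bowtie2, HTSeq, DESeq2), with no versions, roles or strand settings. The authors deposited counts per gene and FPKM values. The deposited counts pile up at multiples of 4 (in genes over 2000 bases the value 4 occurred 5958 times, 3 occurred 989 and 5 occurred 1000 times), so they were treated as estimated counts; 12 further columns repeating them were not used. Within each group every pair of libraries differed by more than counting noise.

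Counts were filtered by filterByExpr (minimum count 10, minimum total 15), TMM-scaled and fitted in one model of the 4 groups by edgeR 4.0.16 (glmQLFit, robust; glmQLFTest, 2-sided) in R 4.3.3. The SE is the log2 fold change divided by the square root of F. Fits were tested on simulated data. Alternatives were DESeq2 1.42.0, other scalings and filters, limma 3.58.1 on log2(FPKM + 1) or log2(FPKM + 0.1), which understates low genes, per-library splines (5 degrees of freedom) on length and GC of the transcripts, counts divided by 4, a replicate block and leaving out libraries. Leaving out 2 libraries together and adding nuclear copies (BLAST 2.17.0) were chosen after the data were seen, the 2 libraries from the same mitochondrial values. Values are given per library for both rRNAs, mt-Nd6 and, per class and comparison, the members with the largest and smallest log2 fold change above 1 CPM. Of the nuclear lists the rule names 6 genes whatever their result and up to 3 called genes per direction with the smallest p; other genes were named after their values were seen. The members and lists were chosen with earlier results of these data known. Figures were drawn with matplotlib 3.10.9.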

Additional observations from a re-analysis of the deposited data

How the results depend on the processing

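Counts of called genes moved most in the IR comparisons. For IR in control cells (5 higher, 6 lower) there were 8 higher with upper-quartile factors, 2 higher and 14 lower with limma on log2(FPKM + 1) or log2(FPKM + 0.1), 2 higher without its filter, 23 higher and 1 lower with the length and GC splines, and 12 lower without both doubted libraries. Over all genes, upper-quartile factors gave 5122 higher of 18183, and the splines 4416 higher and 3149 lower of 18159. Filtered limma on log2(FPKM + 1) gave 2115 higher and 6038 lower of 12753, and unfiltered limma 1927 higher of 29549. Without both libraries 5098 of 18681 were lower. For IR in sgRnf19a cells (6 and 4) there were 2 lower with upper-quartile factors, 3 higher and 16 lower with limma on either FPKM scale, 3 and 12 without its filter, 20 and 2 with the splines, and 10 and 14 without both libraries. All genes gave 2635 lower of 18183 with upper-quartile factors, and 3468 higher and 3020 lower of 18159 with the splines. They gave 1810 higher and 6304 lower of 12753 with filtered limma on log2(FPKM + 1). The counts were 1721 and 6579 of 29549 without its filter, and 4166 and 4688 of 18681 without both libraries. For the guide in untreated cells (1 and 11) there were 15 lower without both libraries, against 802 of 18681 among all genes. For the guide in IR-treated cells (3 and 13) there were 1 higher and 6 lower from the 2 groups alone, 1 higher with unfiltered FPKM and 0 higher with the splines. Among all genes these were 1639 higher and 1158 lower of 15307, 1381 higher of 29549 and 2068 higher of 18159. For the difference between IR responses (0 and 0) there was 1 lower with the 1 CPM filter, DESeq2 or limma on log2(FPKM + 1), and 2 higher without both libraries. Among all genes these were 58 lower of 13494, 395 of 18183 and 31 of 12753, and 496 higher of 18681. As a share of FPKM, the IR difference of the class was -1.55 in sgRnf19a and -1.83 in control cells for mRNA, -0.80 and -1.47 for rRNA and -1.30 and -1.39 for tRNA, against -0.81 and -0.83, -0.13 and -0.80, and -0.49 and -0.49 as a share of counts; as a share of nuclear protein-coding counts, tRNA gave -0.25 in sgRnf19a and -0.21 in control cells, and rRNA 0.11 in sgRnf19a cells. Of 49 called values of mitochondrial genes the sign turned for 5, each with the splines: mt-Atp6 (0.10) and mt-Atp8 (0.04) with IR in control cells, mt-Nd5 (0.11) and mt-Nd6 (0.14) with IR in sgRnf19a cells, and mt-Atp6 between guides in IR-treated cells (-0.01). Among uncalled values, examples are mt-Nd6 with IR in control cells on FPKM (-0.40) and, with the splines, mt-Nd4 (0.79) and mt-Co1 (0.65) with IR in control cells, both then called, mt-Rnr2 with IR in sgRnf19a cells (0.44) and mt-Rnr2 between guides in IR-treated cells (-0.51). The cause was not tested. The median of all genes moved to 0.09 in sgRnf19a and 0.19 in control cells with upper-quartile factors and to -0.40 and -0.34 with log2(FPKM + 1). Counts divided by 4 and added nuclear copies moved no count past 1.5 times.

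The numbers 1 to 3 of the untreated libraries do not pair them (correlations of same-numbered deviations -0.16, 0.14 and 0.21). A replicate block gave 4 higher and 14 lower, against 1 and 11. Among all genes the block gave 1418 higher and 1804 lower of 18168. The IR-treated columns carry other numbers, so no block could be fitted there.

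Leaving out one library gave 4 to 6 higher and 4 to 9 lower for IR in control cells, 5 to 9 and 0 to 13 for IR in sgRnf19a cells, 1 to 1 and 2 to 9 for the guide in untreated cells, 3 to 3 and 7 to 13 for the guide in IR-treated cells, and 0 to 0 and 0 to 1 for the difference.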
